A study of Homo sapiens with 24 samples.

Results

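The 31 genes described here carry the symbols of subunits of the nuclear RNA polymerases I, II and III. They are the entries whose symbol reads POLR1, POLR2 or POLR3 followed by a letter, 31 of the 26249 genes measured, with 5 for polymerase I, 16 for polymerase II and 10 for polymerase III. RNA was measured in H929 and MM1S, both established cell lines of human multiple myeloma, a tumour of plasma cells. The cells received DMSO as the vehicle or YKL-5-124 (YKL below), a compound known by a code name whose target is the kinase CDK7 by the series title. Harvest was at 6 h or 24 h, for 8 groups of 3 libraries each. The labels give a dose of 83 nM with H929 and 98 nM with MM1S, and repeat that figure for DMSO, so the effects of line and dose cannot be told apart. The labels do not say whether replicates were separate cultures, so the p-values reflect no more than the spread among these libraries, possibly a technical one.

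Polymerase I transcribes the ribosomal RNA precursor in the nucleolus, polymerase II transcribes messenger RNA, and polymerase III makes tRNA, 5S ribosomal RNA and other small RNAs. Each enzyme is built around a pair of large catalytic subunits, with an assembly platform, a stalk and smaller subunits around them, and several of the smaller subunits are common to all of the enzymes. The largest subunit of polymerase II, POLR2A, carries the C-terminal domain, the tail that CDK7, as the kinase of the initiation factor TFIIH, phosphorylates. Plasma cell tumours such as myeloma make large amounts of secretory protein and use ribosomes and tRNA heavily.

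The symbols alone do not give the whole of each enzyme, and POLR2M, counted with polymerase II, encodes a factor that associates with it. POLR1C and POLR1D, which carry polymerase I symbols, are also subunits of polymerase III, and POLR2E, POLR2F, POLR2H, POLR2K and POLR2L are common to all of the enzymes. The polymerase I subunits CD3EAP, TWISTNB and ZNRD1 (POLR1G, POLR1F and POLR1H in RefSeq) stand in the tables under older symbols and were counted among the partners of polymerase I. POLR2J2, POLR2J3 and POLR2J4 are near-identical copies of POLR2J, and reads could have been split between them, so the values of all 4 are uncertain. All 31 genes passed the filter of at least 1 FPKM (fragments scaled by transcript length, the deposited unit, here level on the spike-ins and not on the library total) in at least 3 libraries, which left 12418 genes for testing. POLR2J2 and POLR2J4 passed through their MM1S values only.

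The spike-in transcripts were level between libraries (median log2 deviation -0.04 to 0.09 over 50 of them) while the genes were not. Summed gene FPKM divided by summed spike-in FPKM was 14.1 to 17.1 in the H929 libraries given DMSO for 6 h and 10.5 to 15.8 in those given YKL, and 12.6 to 14.4 and 4.53 to 8.98 at 24 h. In MM1S it ranged from 7.80 to 10.0 and 6.75 to 8.12 at 6 h, and from 2.77 to 5.72 and 2.52 to 3.01 at 24 h. In such bulk samples fewer cells and less RNA per cell cannot be told apart. The median log2 change of all genes tested under YKL was therefore not 0 but -0.06 (6 h) and -0.46 (24 h) in H929, and -0.29 and -0.12 in MM1S. After median-of-ratios rescaling, which sets the typical gene of each library level, it was 0.07, 0.13, 0.05 and 0.05. Values are on the deposited scale unless called rescaled. Doubt attaches to 3 libraries: the spike-ins scattered most in MM1S YKL 6 h replicate 2 and MM1S DMSO 24 h replicate 1 (SD 0.964 and 0.58 on the log2 scale, 0.329 at most in the others), and H929 YKL 24 h replicate 2 had the lowest summed FPKM of its group. MM1S DMSO 24 h replicate 3 is not among these 3, although it had the fewest genes at 1 FPKM or more (7958). Its summed gene FPKM was 399544, against 844759 in replicate 2 of that group. Of the 10 plasma cell markers all but CD79A exceeded 1 FPKM on average in the 6 h DMSO groups of both lines (for H929 and then MM1S, SDC1 was 644 ± 74.3 and 554 ± 58.4 FPKM, mean ± SD, n = 3; CD79A 0.333 ± 0.236 and 0.577 ± 0.395). Markers of other cell types were mixed in these groups. Below 1 FPKM in all 3 libraries were 5 (H929) and 4 (MM1S) of 7 T cell markers. The same held for 4 and 7 of 8 monocyte markers, and 7 and 8 of 8 epithelial and fibroblast markers. CD14 was low in both lines (0.107 ± 0.0144 in H929 and 0.184 ± 0.142 in MM1S). CD28 was higher in both (43.4 ± 4.05 and 24.3 ± 4.10), and CD68 (10.2 ± 1.20 and 0.995 ± 0.422) and KRT18 (26.8 ± 7.16 and 0.247 ± 0.179) in H929. The 8 monocyte markers summed to between 25.5 and 30.9 FPKM in H929 and between 1.48 and 2.14 in MM1S. The line marker FGFR3 had 29.5 ± 1.53 FPKM in H929 and 0.222 ± 0.218 in MM1S, whereas CCND2, listed for H929, was higher in MM1S (2.11 ± 0.459 and 79.6 ± 6.30), and CCR1 and NUAK1, listed for MM1S, were higher in H929.

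Promoter sequence is shown for the member that rose with YKL, POLR2A, and for those with the largest fall in H929 at 6 h, POLR1C, and in MM1S at 24 h, POLR3K. It comes from the RefSeq promoter table on GRCh38.p14, which held 21 of the 31 genes. The sequences run 5′ to 3′ on the coding strand and start 250 bases before the start site. Those of POLR1C and POLR3K end where other annotated transcripts begin. Capitals mark the GC box GGGCGG and the CCAAT box CCAAT, on either strand (CCGCCC and ATTGG on the other strand), and no matches overlap. CACGTG and TATAAA were searched too and are not in these stretches.
POLR2A (largest subunit of polymerase II), plus strand, chr17:7484116-7484365: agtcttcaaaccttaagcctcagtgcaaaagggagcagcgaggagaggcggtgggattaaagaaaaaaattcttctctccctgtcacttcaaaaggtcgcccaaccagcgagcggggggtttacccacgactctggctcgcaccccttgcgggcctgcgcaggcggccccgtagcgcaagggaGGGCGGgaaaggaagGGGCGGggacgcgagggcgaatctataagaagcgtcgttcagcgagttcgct
POLR1C (assembly subunit of polymerases I and III), plus strand, chr6:43516839-43517021: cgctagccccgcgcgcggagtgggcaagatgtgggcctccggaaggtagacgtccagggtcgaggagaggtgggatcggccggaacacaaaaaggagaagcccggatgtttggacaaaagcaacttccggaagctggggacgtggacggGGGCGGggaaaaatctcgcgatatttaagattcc
POLR3K (small subunit of polymerase III), minus strand, chr16:53629-53858: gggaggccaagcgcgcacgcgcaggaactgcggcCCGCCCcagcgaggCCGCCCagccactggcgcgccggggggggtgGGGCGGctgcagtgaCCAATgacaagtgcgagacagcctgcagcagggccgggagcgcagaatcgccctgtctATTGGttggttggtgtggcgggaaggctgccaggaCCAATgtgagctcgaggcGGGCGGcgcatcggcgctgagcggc
The POLR2A stretch held 2 GC boxes, beginning 67 and 52 bases before the start. POLR1C held 1 GC box, and POLR3K held 4 GC boxes and 3 CCAAT boxes. Among the 21 members a GC box stood within 250 bases before the start in 16 and a CCAAT box in 5, against 42.64% and 32.01% of 35116 promoters in the table. The E-box CACGTG stood in 2 members (6.345% of all promoters) and TATAAA in 1 (10.72%). A member counted where any of its promoter entries held the motif, whereas the shares of all promoters were taken per entry. GC boxes thus stood before POLR2A, which rose, and before POLR1B, POLR1C, POLR2H and POLR3K, which fell.

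Under YKL most subunit genes had negative log2 changes on the deposited scale (26 of 31 in H929 at 6 h, 28 at 24 h, and 26 and 25 in MM1S), and POLR2A was higher. The medians of all genes were also below 0 on that scale. Rescaled, 18 and 21 of 31 were negative in H929 at 6 h and 24 h, and 17 and 18 in MM1S. Differences were tested gene by gene with limma on log2(FPKM + 1), and adjusted p-values are Benjamini-Hochberg values over all genes tested, with a threshold of 0.05. In H929 at 6 h, 1 member rose and 2 fell (1.03% of all genes rose and 1.16% fell). At 24 h in the same line none rose and 21 of 31 fell (35.4% of all genes fell). In MM1S 1 rose and 2 fell at 6 h (0.926% of all genes rose and 10% fell), and 1 rose and 3 fell at 24 h (0.684% rose and 6.77% fell). The median log2 change of the 31 members was -0.35 (6 h) and -1.15 (24 h) in H929, and -0.43 and -0.26 in MM1S, below the median of all genes each time. After rescaling it was -0.16, -0.42, -0.04 and -0.06, against all-gene medians of 0.07, 0.13, 0.05 and 0.05. Rescaled, 2 rose and 4 fell in H929 at 6 h (5.1% and 4.19% of all genes), and 3 rose and 16 fell at 24 h (20.8% and 12.5%). In MM1S 3 rose and 1 fell at 6 h (8.25% and 7.22%), and 4 rose and 8 fell at 24 h (14.4% and 13.3%). The share of members that fell in MM1S at 6 h was not above that of all genes on either scale, while that in H929 at 24 h was on both. Without the 3 doubted libraries 3 and 19 members were called in H929 at the earlier and the later time, and 4 and 4 in MM1S. The small counts turned on single libraries: in H929 at 6 h none was called without DMSO replicate 2, DMSO replicate 3 or YKL replicate 1, and 1 without YKL replicate 3, and in MM1S at 6 h 1 was called whichever of the 6 was left out. In MM1S at 24 h 9 were called without DMSO replicate 3, 2 without DMSO replicate 1 or YKL replicate 2, and 1 without YKL replicate 1.

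**Figure D1:**
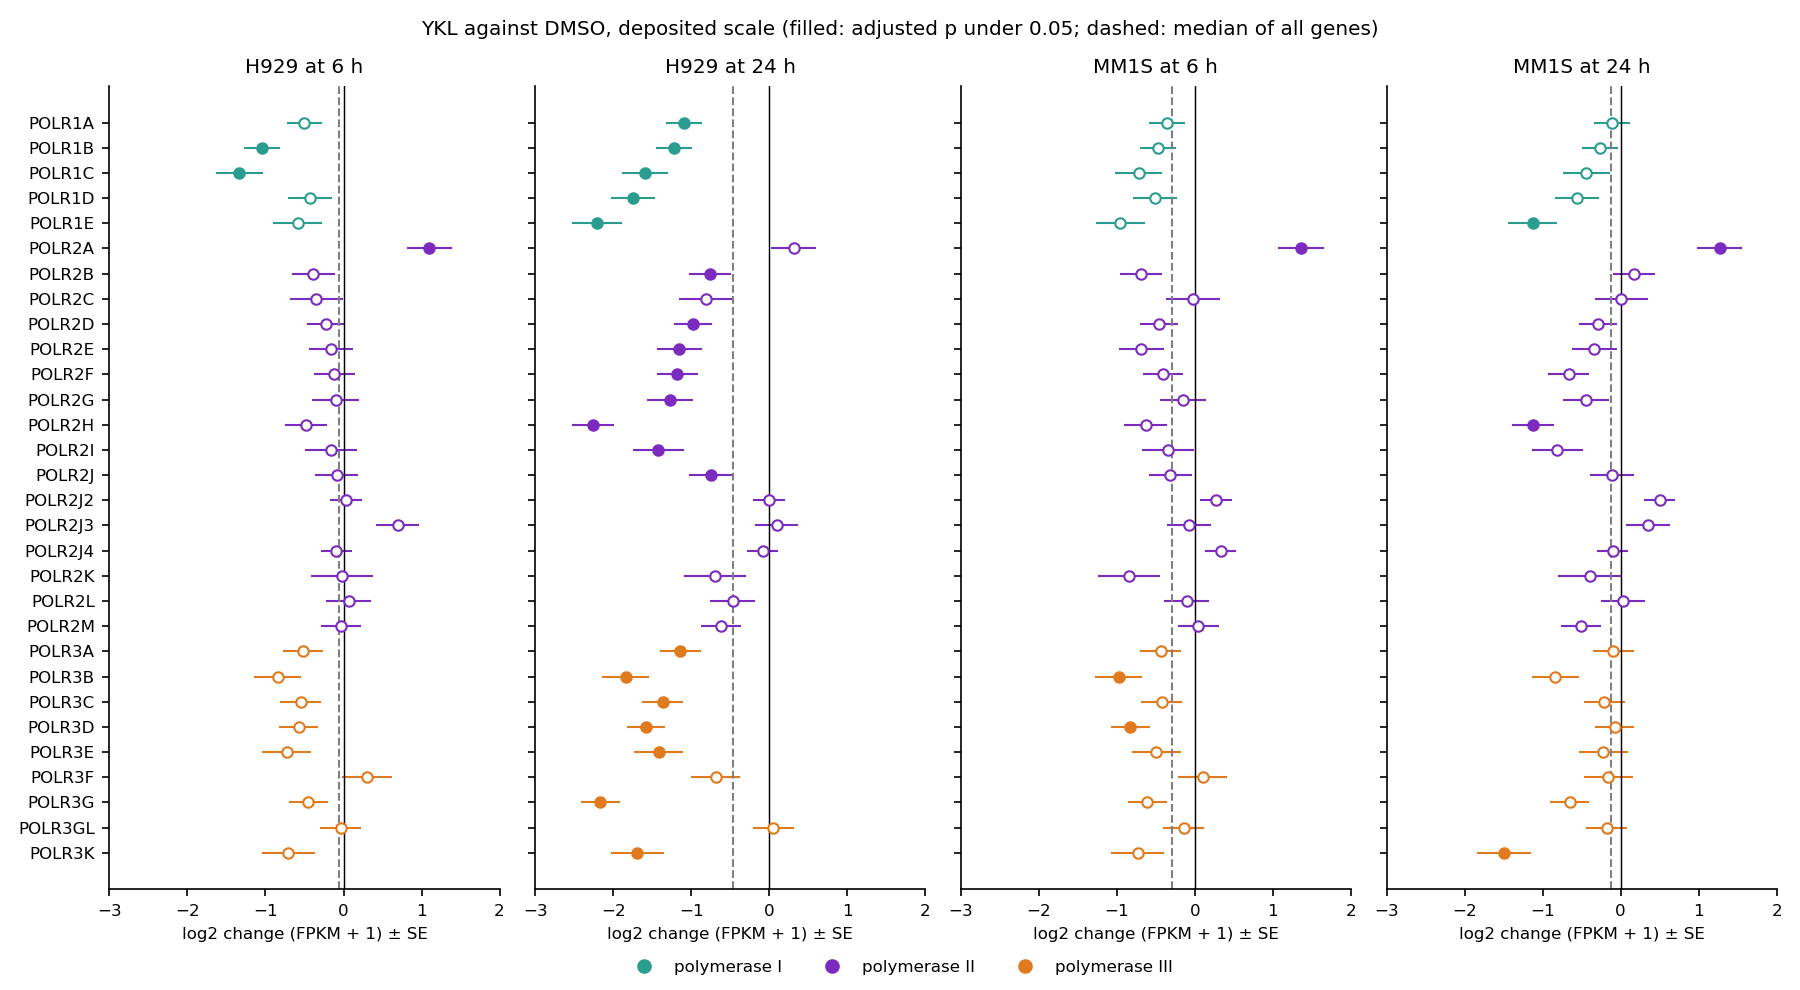
Log2 change of the subunit genes reported, with YKL against DMSO (FPKM + 1, ± SE, n = 3 per group) in each line and time, filled where the adjusted p was under 0.05, with the median of all genes dashed. POLR2A lies to the right in every panel (1.10, 0.32, 1.36 and 1.27 from left to right), and in H929 at 24 h most members are filled and to the left.

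POLR2A, the catalytic subunit of polymerase II that carries the C-terminal domain, was the only member that rose on the deposited scale in any YKL comparison. In H929 at 6 h the DMSO libraries stood at 54.5, 76.7 and 63.0 FPKM and the YKL libraries at 112, 145 and 164, with no overlap. In MM1S at 6 h they stood at 46.7, 44.6 and 37.7 (DMSO) and 117, 107 and 111 (YKL) FPKM, with every YKL library above every DMSO library. At 24 h the MM1S values were 21.0, 45.7 and 21.5 with DMSO and 59.9, 68.3 and 75.6 with YKL, again apart. The log2 changes were 1.10 ± 0.29 (SE, limma adjusted p = 0.0452), 1.36 ± 0.29 (adjusted p = 0.00519) and 1.27 ± 0.29 (adjusted p = 0.00686). Ordered from the highest log2 change, POLR2A was gene 135 of 12418 in H929 at 6 h, and gene 49 and gene 54 in MM1S at 6 h and 24 h.

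H929 at 24 h was the exception for POLR2A without rescaling. The DMSO libraries stood at 89.3, 84.3 and 75.8 FPKM and the YKL libraries at 128, 61.5 and 140.3. YKL replicates 1 and 3 lay above every DMSO library and replicate 2, the library with the lowest summed FPKM of its group, lay below them. The log2 change was 0.32 ± 0.29 (limma adjusted p = 0.414), and 1.14 rescaled, where POLR2A rose (adjusted p = 6.80e-08). Rescaled values in the other comparisons were 1.28 in H929 at 6 h, and 1.82 and 1.56 in MM1S at 6 h and 24 h. The call in H929 at 6 h was close to the threshold: it was lost in 11 of 16 alternatives, among them the omission of each of the 6 libraries in turn (adjusted p from 0.0539 without YKL replicate 1 to 0.161 without YKL replicate 3). The call in MM1S at 6 h held in all 16 alternatives and that at 24 h in 15 of 16.

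**Figure D2:**
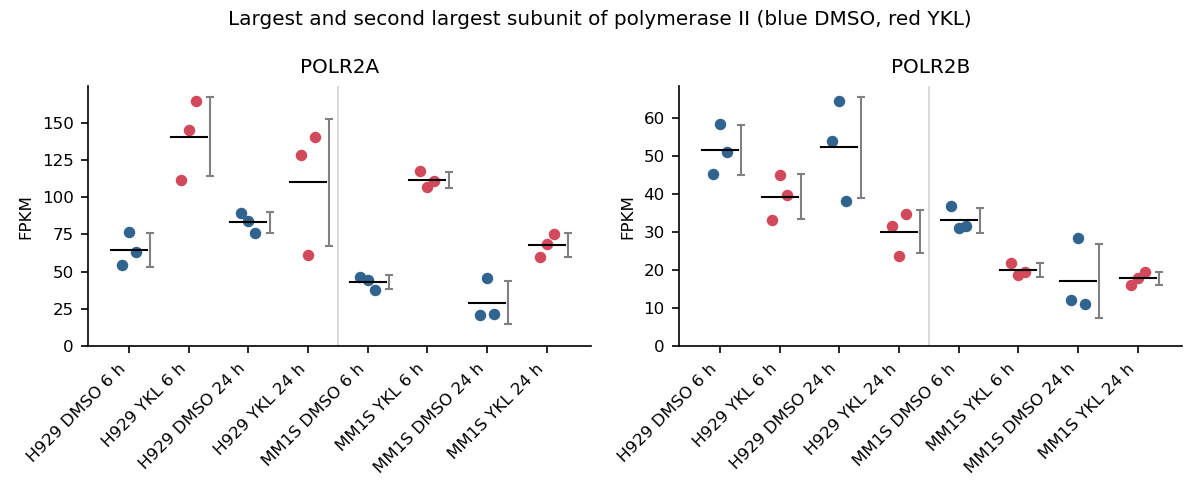
FPKM of POLR2A and POLR2B in the 24 libraries (points), with the mean (black line) and SD (grey bar) of each group of 3. POLR2A is higher with YKL in both lines at 6 h and in MM1S at 24 h, while POLR2B with YKL lies below DMSO in both lines at 6 h and in H929 at 24 h, so these large subunits part.

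POLR2B, the other large catalytic subunit of polymerase II, did not rise with POLR2A on the deposited scale. In H929 it stood at 45.3, 58.5 and 50.9 FPKM with DMSO and 33.2, 45.1 and 39.7 with YKL at 6 h, and at 54.0, 64.4 and 38.1 (DMSO) and 31.6, 23.8 and 34.8 (YKL) at 24 h. In MM1S the values were 36.9, 30.9 and 31.5 (DMSO) and 22.0, 18.7 and 19.5 (YKL) at 6 h, and 12.1, 28.3 and 11.1 (DMSO) and 16.1, 18.0 and 19.6 (YKL) at 24 h. YKL values were under every DMSO value in the first 3 comparisons and within their range in the last. POLR2B fell in H929 at 24 h (-0.76 ± 0.27, limma adjusted p = 0.0306), and its log2 changes elsewhere were -0.39 in H929 at 6 h, and -0.69 and 0.17 in MM1S. The fall in H929 at 24 h was not called without DMSO replicate 1, DMSO replicate 2 or YKL replicate 2 (adjusted p = 0.0824, 0.148 and 0.142), and after rescaling its log2 change was 0.06. Rescaled, POLR2B rose in MM1S at 24 h (0.45, adjusted p = 0.0114).

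The parting of the 2 large subunits did not depend on the scale, since a ratio within a library cancels it. FPKM of POLR2A over FPKM of POLR2B was 1.25 ± 0.0561 with DMSO and 3.58 ± 0.494 with YKL after 6 h in H929, and 1.65 ± 0.339 and 3.56 ± 0.843 at 24 h (mean ± SD, n = 3). The MM1S ratios were 1.30 ± 0.125 and 5.58 ± 0.208 after 6 h, against 1.76 ± 0.157 and 3.80 ± 0.0693 after 24 h. Every YKL library lay above every DMSO library of its line and time, and H929 YKL 24 h replicate 2, at 2.59, was the lowest with YKL. The ratio shows unequal change of the genes and not which of them moved.

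The remaining subunits particular to polymerase II fell, among the YKL comparisons on the deposited scale, only in H929 at 24 h. Those were the stalk subunits POLR2D (-0.98 ± 0.24) and POLR2G (-1.27 ± 0.30), the small subunit POLR2I (-1.42 ± 0.33) and the assembly subunit POLR2J (-0.75 ± 0.28). POLR2C, the assembly partner of POLR2J, had a log2 change of -0.81 ± 0.34 there (limma adjusted p = 0.0639). After rescaling only POLR2G (-0.44) and POLR2I (-0.59) of these fell in H929 at 24 h, and POLR2I also in MM1S at 24 h (-0.56). POLR2M, whose product Gdown1 associates with polymerase II, passed in no YKL comparison on either scale, with log2 changes from -0.61 to 0.05. Of the POLR2J copies none passed on the deposited scale. Rescaled, POLR2J3 rose in H929 at both times and in MM1S at 24 h (0.77, 0.76 and 0.65), POLR2J2 in MM1S at both times (0.67 and 0.84) and POLR2J4 in MM1S at 6 h (0.59). POLR2J4 was low there, at 1.05, 1.14 and 0.742 FPKM with DMSO and 2.04, 1.66 and 0.878 with YKL. These groups overlapped, and its deposited-scale log2 change was 0.33 (limma adjusted p = 0.287).

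POLR2H, the common subunit that fell furthest, was lower with YKL in both lines. The H929 libraries held 220.4, 262 and 238 FPKM with DMSO and 136, 183 and 201 with YKL at 6 h, and 163, 232 and 186 (DMSO) and 39.4, 29.8 and 50.8 (YKL) at 24 h. In MM1S they held 194, 165 and 134 (DMSO) and 111, 98.8 and 104 (YKL) at 6 h, and 49.6, 104 and 50.5 (DMSO) and 27.3, 24.7 and 35.7 (YKL) at 24 h. The YKL libraries lay below the DMSO libraries in every comparison. POLR2H fell in H929 at 24 h (-2.26 ± 0.27, limma adjusted p = 2.56e-06) and in MM1S at 24 h (-1.12 ± 0.27, adjusted p = 0.0105), and did so rescaled (-1.43 and -0.86). The MM1S call was lost without DMSO replicate 2, YKL replicate 1 or YKL replicate 2 (adjusted p = 0.0604, 0.0528 and 0.0653) on the deposited scale. At 6 h its log2 changes were -0.48 in H929 and -0.63 in MM1S (adjusted p = 0.424 and 0.132).

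The other common subunits had smaller log2 changes in H929 at 24 h. POLR2F stood at 118, 130.1 and 147 FPKM with DMSO and 92.0, 139 and 138 with YKL after 6 h in H929, and at 122, 136 and 121 (DMSO) and 66.4, 38.4 and 65.9 (YKL) at 24 h. In MM1S it stood at 84.0, 80.3 and 64.6 (DMSO) and 58.8, 50.2 and 62.3 (YKL) at 6 h, and at 28.8, 41.5 and 19.9 (DMSO) and 15.0, 16.9 and 22.1 (YKL) at 24 h. It fell in H929 at 24 h (-1.18 ± 0.26, limma adjusted p = 0.00135; -0.35 rescaled), as did POLR2E on the deposited scale (-1.15 ± 0.29; -0.31 rescaled, adjusted p = 0.0886). In MM1S at 24 h POLR2F had a log2 change of -0.67 (adjusted p = 0.14) and fell after rescaling (-0.41) or without DMSO replicate 3 (adjusted p = 0.0206). POLR2K and POLR2L passed in none of the YKL comparisons on either scale. Their log2 changes in H929 at 24 h were -0.70 ± 0.40 and -0.47 ± 0.29.

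For polymerase I, POLR1B and POLR1C fell in H929 within 6 h, and all 5 members had fallen in that line at 24 h (1.16% and 35.4% of all genes fell). POLR1B, the second largest catalytic subunit, stood at 12.3, 15.1 and 14.8 FPKM with DMSO and 5.07, 6.55 and 7.40 with YKL after 6 h in H929, and at 10.4, 12.2 and 8.47 (DMSO) and 4.30, 2.56 and 5.02 (YKL) at 24 h. POLR1C, an assembly subunit shared with polymerase III, stood at 62.6, 97.9 and 92.9 (DMSO) and 26.2, 35.8 and 35.7 (YKL) at 6 h, and at 80.3, 73.3 and 71.5 (DMSO) and 29.6, 12.8 and 36.9 (YKL) at 24 h. For both genes and at both times the YKL and DMSO values were apart, with YKL lower. The log2 changes at 6 h were -1.05 ± 0.23 (limma adjusted p = 0.0151; -0.82 rescaled) and -1.34 ± 0.30 (adjusted p = 0.0187; -1.13 rescaled), and both genes fell on either scale. At 24 h they were -1.22 ± 0.23 and -1.59 ± 0.30. The POLR1B call at 6 h was lost without DMSO replicate 2, DMSO replicate 3 or YKL replicate 1 (adjusted p = 0.0771, 0.0709 and 0.0709). That of POLR1C was lost without each of these (0.103, 0.0851 and 0.0783) and without YKL replicate 3 (0.0511).

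In MM1S neither of these genes passed. POLR1B stood at 7.07, 9.70 and 7.49 FPKM with DMSO and 6.15, 5.74 and 4.67 with YKL at 6 h, and at 3.04, 3.79 and 2.29 (DMSO) and 1.86, 2.97 and 2.23 (YKL) at 24 h. POLR1C stood at 38.6, 39.1 and 35.0 (DMSO) and 21.7, 18.4 and 28.1 (YKL) at 6 h, and at 23.4, 22.0 and 14.2 (DMSO) and 10.4, 16.1 and 16.6 (YKL) at 24 h. The groups were apart at 6 h and overlapped at 24 h for both genes, and no change passed (limma log2 -0.47 and -0.72 at 6 h, adjusted p = 0.18 and 0.124). A difference from the H929 response at 6 h was not called either, with interaction values of 0.57 ± 0.32 for POLR1B and 0.61 ± 0.43 for POLR1C (adjusted p = 0.561 and 0.675).

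POLR1E, which with CD3EAP forms a polymerase I subcomplex, had the largest fall of the polymerase I members in H929 at 24 h. It stood at 15.3, 19.2 and 24.4 FPKM with DMSO and 9.27, 15.5 and 13.5 with YKL after 6 h in H929, and at 23.7, 17.4 and 16.0 (DMSO) and 4.20, 1.31 and 5.52 (YKL) at 24 h. In MM1S the values were 4.65, 7.45 and 6.32 (DMSO) and 2.22, 2.77 and 2.95 (YKL) at 6 h, and 3.74, 3.33 and 1.73 (DMSO) and 0.497, 0.573 and 1.28 (YKL) at 24 h. The groups overlapped in H929 at 6 h only. POLR1E fell in H929 at 24 h (-2.21 ± 0.32, limma adjusted p = 1.93e-05; -1.47 rescaled) and in MM1S at 24 h (-1.13 ± 0.32, adjusted p = 0.0287; -1.25 rescaled). The MM1S call was lost on the deposited scale without DMSO replicate 1 or 2, or YKL replicate 1 or 2 (adjusted p = 0.123, 0.0935, 0.136 and 0.115). At 6 h in MM1S it had a log2 change of -0.96 ± 0.32 (adjusted p = 0.0533) and passed without the 3 doubted libraries (adjusted p = 0.0409).

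POLR1A, the largest subunit of polymerase I, and POLR1D, the second assembly subunit shared with polymerase III, fell in H929 at 24 h only. POLR1A stood at 3.81, 2.60 and 4.01 FPKM with DMSO and 1.84, 1.62 and 3.13 with YKL after 6 h in H929, and 2.79, 4.19 and 3.26 (DMSO) and 1.49, 0.752 and 0.982 (YKL) at 24 h. In MM1S it stood at 2.72, 1.52 and 1.14 (DMSO) and 1.17, 1.05 and 1.15 (YKL) at 6 h, and at 0.528, 1.08 and 0.368 (DMSO) and 0.443, 0.663 and 0.455 (YKL) at 24 h, with overlap at both times. Its log2 change in H929 at 24 h was -1.09 ± 0.23 (limma adjusted p = 0.000842; -0.50 rescaled, adjusted p = 0.0446). The rescaled call was lost with replicate number as a block (adjusted p = 0.05005) and without the 3 doubted libraries (0.083). POLR1D stood at 114, 104 and 154 FPKM with DMSO and 72.8, 103 and 98.5 with YKL after 6 h in H929, and at 77.0, 107 and 88.8 (DMSO) and 31.5, 19.9 and 28.6 (YKL) at 24 h. In MM1S it stood at 83.6, 85.3 and 47.3 (DMSO) and 50.6, 44.6 and 51.1 (YKL) at 6 h, and at 23.1, 41.7 and 22.8 (DMSO) and 17.8, 14.8 and 24.6 (YKL) at 24 h, with overlap at both times. The fall of POLR1D in H929 at 24 h was -1.74 ± 0.28 (adjusted p = 6.51e-05; -0.92 rescaled).

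**Figure D3:**
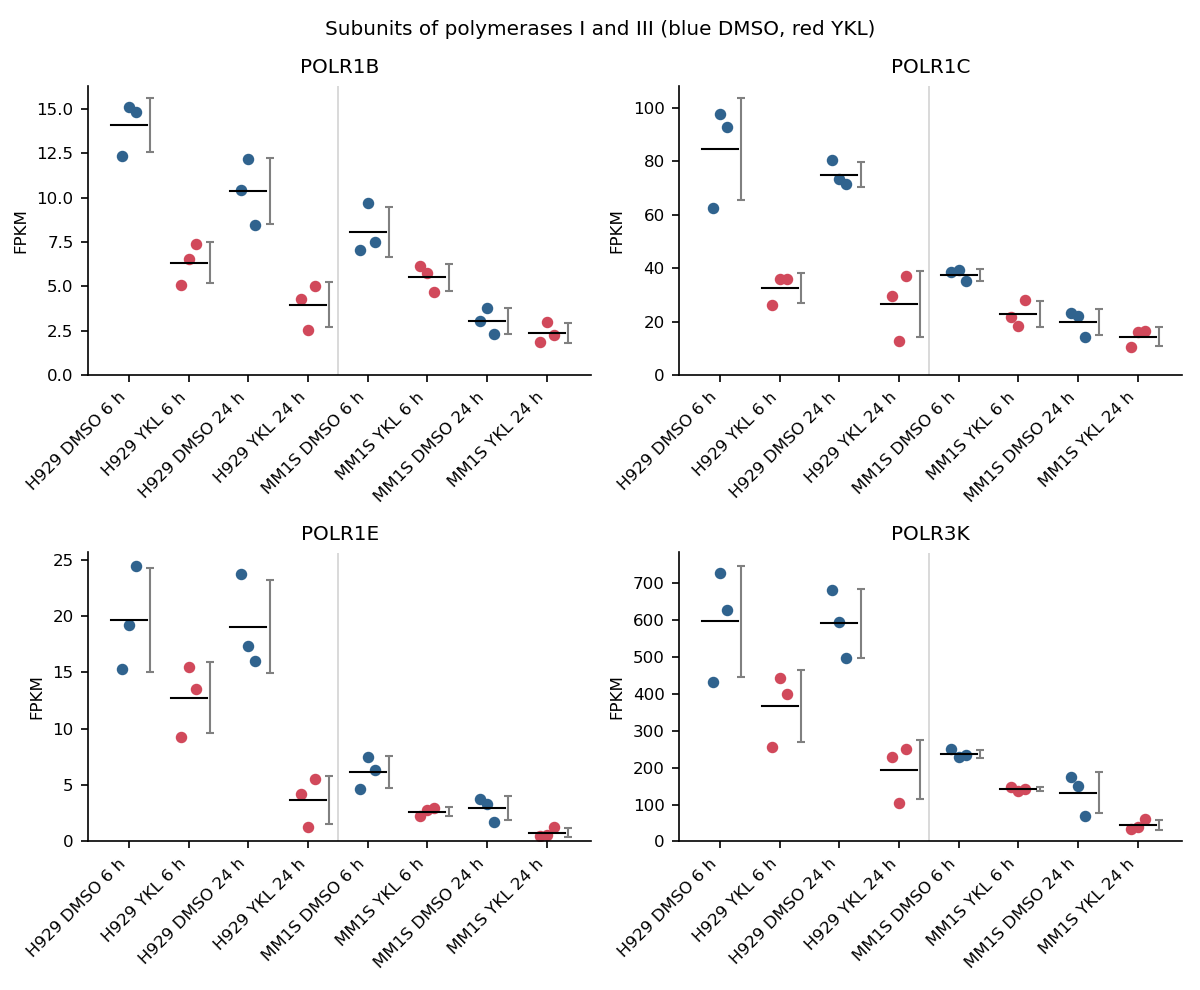
FPKM of POLR1B, POLR1C, POLR1E and POLR3K in the 24 libraries (points), with the mean (black line) and SD (grey bar) of each group of 3. POLR1B and POLR1C separate by treatment in H929 at 6 h already, and POLR1E and POLR3K are lower with YKL in both lines at 24 h.

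Of the 10 polymerase III members, 8 fell in H929 at 24 h, 2 in MM1S at 6 h and 1 in MM1S at 24 h, and 0 in H929 at 6 h (limma, 5 of 10 there at an unadjusted p under 0.05, and 2 called after rescaling, with 4.19% of all genes). Of all genes 35.4% fell in H929 at 24 h, 10% in MM1S at 6 h and 6.77% in MM1S at 24 h. The MM1S count at 24 h was thus near the background. The large subunits POLR3A and POLR3B, and POLR3C, were among the 8, with log2 changes of -1.14, -1.84 and -1.37. POLR3D, POLR3E, POLR3G and POLR3K were too (-1.58, -1.41, -2.17 and -1.69). Rescaled, these 7 genes fell. POLR3F, which with POLR3C and POLR3G or POLR3GL forms the trimer that contacts the initiation factor TFIIIB, had -0.69 ± 0.31 (adjusted p = 0.0894).

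POLR3K, a small subunit active in termination, was the polymerase III member that fell furthest in MM1S at 24 h. It stood at 433, 729 and 629 FPKM with DMSO and 257, 444 and 399.7 with YKL after 6 h in H929, and at 683, 595 and 496 (DMSO) and 229, 103 and 251 (YKL) at 24 h. In MM1S the values were 249.6, 228 and 234 (DMSO) and 148, 137 and 141 (YKL) at 6 h, and 175, 151 and 68.8 (DMSO) and 32.7, 40.0 and 59.6 (YKL) at 24 h. The groups overlapped in H929 at 6 h and nowhere else. POLR3K fell in H929 at 24 h (-1.69 ± 0.34, limma adjusted p = 0.000626; -0.85 rescaled) and in MM1S at 24 h (-1.49 ± 0.34, adjusted p = 0.00726; -1.23 rescaled). The MM1S call was lost without DMSO replicate 1 or YKL replicate 1 (adjusted p = 0.0505 and 0.0594).

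POLR3B and POLR3D were the polymerase III members that fell in MM1S at 6 h. POLR3B, the second largest subunit, stood at 5.55, 5.23 and 5.05 FPKM with DMSO and 1.92, 2.86 and 1.88 with YKL there, and at 3.15, 4.90 and 1.88 (DMSO) and 1.03, 1.24 and 1.72 (YKL) at 24 h. POLR3D, a subunit that pairs with POLR3E, stood at 33.5, 28.8 and 39.0 (DMSO) and 18.0, 17.1 and 20.3 (YKL) at 6 h, and at 10.4, 15.8 and 8.60 (DMSO) and 8.96, 10.3 and 13.0 (YKL) at 24 h. The groups were apart at 6 h for both genes, and at 24 h for POLR3B but not POLR3D. At 6 h the log2 changes were -0.98 ± 0.30 (limma adjusted p = 0.0394; -0.62 rescaled, adjusted p = 0.0268) and -0.83 ± 0.25 (adjusted p = 0.0354; -0.38 rescaled, adjusted p = 0.073). Both calls were lost whichever of the 6 libraries was left out (adjusted p from 0.0553 to 0.133 for POLR3B and from 0.0543 to 0.112 for POLR3D), so they rest on the full set. At 24 h POLR3B had -0.84 ± 0.30 (adjusted p = 0.097) and fell after rescaling (-0.78) or without DMSO replicate 3 (adjusted p = 0.0207), and POLR3D had -0.08 ± 0.25.

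In H929 the values of POLR3B were 15.7, 21.8 and 15.2 FPKM with DMSO and 7.04, 12.0 and 9.24 with YKL at 6 h, and 20.9, 21.3 and 17.7 (DMSO) and 6.25, 2.22 and 7.54 (YKL) at 24 h. Those of POLR3D were 99.6, 112 and 101 (DMSO) and 59.2, 75.7 and 74.8 (YKL) at 6 h, and 94.1, 110.1 and 106 (DMSO) and 37.8, 22.0 and 46.4 (YKL) at 24 h. Groups did not overlap in any of these, and both genes fell at 24 h (limma adjusted p = 7.57e-05 and 5.31e-05). POLR3A, the largest subunit, stood at 7.46, 11.2 and 8.45 FPKM (DMSO) and 3.98, 7.66 and 6.69 (YKL) in H929 at 6 h, and at 9.64, 11.2 and 8.95 (DMSO) and 4.42, 2.33 and 5.70 (YKL) at 24 h, with a fall of -1.14 ± 0.26 at 24 h (adjusted p = 0.00171; -0.42 rescaled). In MM1S POLR3A stood at 5.29, 4.48 and 3.60 (DMSO) and 3.28, 3.27 and 2.48 (YKL) at 6 h, and at 2.04, 2.98 and 1.27 (DMSO) and 1.77, 1.81 and 1.92 (YKL) at 24 h. Its MM1S groups were apart at 6 h and overlapped at 24 h, and neither change passed (-0.44 and -0.09).

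POLR3G and POLR3GL are alternative subunits that occupy the same place in the polymerase III trimer, and only the first of them fell. POLR3G stood at 16.5, 20.5 and 20.0 FPKM with DMSO and 12.2, 15.5 and 13.2 with YKL after 6 h in H929, and at 13.6, 17.8 and 14.8 (DMSO) and 3.35, 1.51 and 3.38 (YKL) at 24 h. POLR3GL stood at 89.5, 103 and 94.1 (DMSO) and 73.7, 112 and 97.7 (YKL) at 6 h, and at 93.9, 116 and 81.2 (DMSO) and 106, 67.2 and 138 (YKL) at 24 h. The POLR3G groups were apart at both times, and those of POLR3GL overlapped at both. The log2 changes at 24 h were -2.17 ± 0.25 for POLR3G (limma adjusted p = 1.71e-06; -1.42 rescaled) and 0.05 ± 0.26 for POLR3GL (adjusted p = 0.906), which rose after rescaling (0.88, adjusted p = 0.000204). The FPKM ratio of POLR3G to POLR3GL, free of the scale, was 0.198 ± 0.0139 with DMSO and 0.146 ± 0.0165 with YKL at 6 h, and 0.160 ± 0.0203 and 0.0262 ± 0.00483 at 24 h, without overlap (n = 3). The MM1S ratios stood at 0.0338 ± 0.00966 and 0.0180 ± 0.0103 at 6 h, with overlap, and 0.0296 ± 0.0149 and 0.00968 ± 0.00382 at 24 h, without. In MM1S POLR3G was at most 2.22 FPKM in every library (2.22, 1.49 and 1.81 with DMSO and 1.11, 1.20 and 0.364 with YKL at 6 h, 1.72, 1.27 and 0.535 (DMSO) and 0.140, 0.513 and 0.411 (YKL) at 24 h), where log2(FPKM + 1) understates change. Its log2 changes there were -0.61 ± 0.25 and -0.65 ± 0.25 (adjusted p = 0.116 and 0.128), and it fell at 24 h after rescaling (-0.81) or without DMSO replicate 3 (adjusted p = 0.0219).

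**Figure D4:**
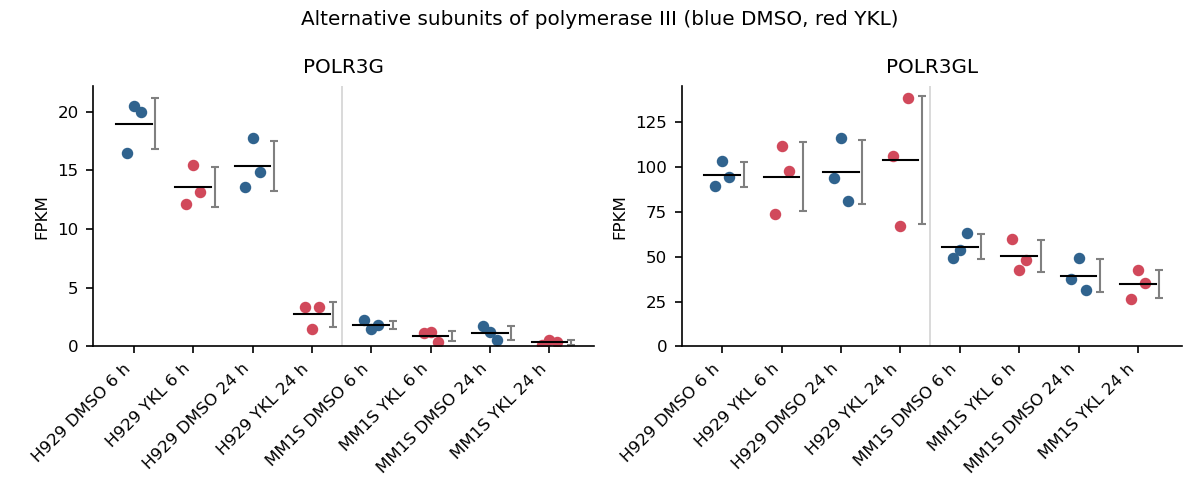
FPKM of POLR3G and POLR3GL in the 24 libraries (points), with the mean (black line) and SD (grey bar) of each group of 3. POLR3G drops to between 1.51 and 3.38 FPKM with YKL in H929 at 24 h and is low in all MM1S libraries, while POLR3GL with YKL overlaps DMSO in both lines.

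The fall of most members in H929 at 24 h came with lower levels of the whole library. The median of all genes was -0.46 there, and the summed FPKM of the 10 plasma cell markers ranged from 9298 to 10602 with DMSO and from 3705 to 6930 with YKL. Their part in the result was not tested. Read against the all-gene median, 26 of 31 members lay below it, with all 5 of polymerase I, 12 of 16 of polymerase II and 9 of 10 of polymerase III. After rescaling 25 of 31 still lay below the rescaled median, and 5, 4 and 7 members of polymerases I, II and III fell (12.5% of all genes). Without the 3 doubted libraries 19 of 31 members were called on the deposited scale and 18 rescaled.

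Genes that work with the polymerases were taken from 4 lists. Of 10 partners of polymerase I, 2 fell in H929 at 6 h, 10 at 24 h, 4 in MM1S at 6 h and 1 at 24 h, and none rose. Of all genes 1.16%, 35.4%, 10% and 6.77% fell in these comparisons, so the last count is near the background. TAF1D, a subunit of the polymerase I selectivity factor SL1, fell in all 4 comparisons (-1.33, -1.78, -1.58 and -1.51). CD3EAP, the polymerase I subunit that pairs with POLR1E, fell in all but MM1S at 24 h (-1.28 ± 0.27, -1.73 ± 0.27 and -1.87 ± 0.27, limma adjusted p = 0.0126, 4.49e-05 and 0.000196). TAF1B, another SL1 subunit, fell in MM1S at 6 h (-1.28 ± 0.22), and UBTF, which opens ribosomal DNA to polymerase I, in H929 at 24 h (-1.42 ± 0.27). The median log2 change of these 10 was -0.44, -1.07, -0.71 and -0.32, in the order just given, against all-gene medians of -0.06, -0.46, -0.29 and -0.12. Rescaled, 3, 4, 4 and 2 fell, and 1 rose in MM1S at each time. Of all genes 4.19%, 12.5%, 7.22% and 13.3% fell on that scale, and 8.25% and 14.4% rose in MM1S.

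Of 28 partners of polymerase II, 0, 10, 1 and 2 fell in the same order and none rose, shares close to those of all genes in H929 at 24 h (35.4%) and MM1S at 24 h (6.77%) (limma, 1 at an unadjusted p under 0.05 in H929 at 6 h). RUVBL1 and RUVBL2, ATPases of the chaperone that assembles polymerases, fell in H929 at 24 h (-1.76 ± 0.27 and -1.21 ± 0.30). GPN3, a GTPase needed for nuclear import of polymerase II, fell there (-1.14 ± 0.29) and in MM1S at 24 h (-0.99 ± 0.29). URI1, a prefoldin-like member of the same chaperone, fell in MM1S at 6 h (-1.04 ± 0.27) and CTDSPL, of the small phosphatases of the C-terminal domain, in MM1S at 24 h (-1.01 ± 0.22). The median of the list was -0.13, -0.68, -0.29 and -0.12. Rescaled, 1, 2, 1 and 4 fell and 0, 1, 3 and 6 rose. Of all genes 4.19%, 12.5%, 7.22% and 13.3% fell and 5.1%, 20.8%, 8.25% and 14.4% rose, so the falls were near or under the background.

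Among 19 partners of polymerase III, 16 fell in H929 at 24 h and 2 in MM1S at 6 h, with 0 in H929 at 6 h and in MM1S at 24 h and none higher (limma, 2 and 3 there at an unadjusted p under 0.05). Of all genes 35.4% fell in H929 at 24 h, and 10% in MM1S at 6 h, close to the share of this list there. GTF3A, the factor TFIIIA that recruits the enzyme to 5S genes, fell in H929 at 24 h (-1.98 ± 0.26), as did the TFIIIC subunit GTF3C4 (-1.62 ± 0.25). SNAPC2, of the complex that reads small nuclear RNA promoters, fell in H929 at 24 h (-1.82 ± 0.33) and MM1S at 6 h (-1.29 ± 0.33), and SSB, whose La protein binds new polymerase III transcripts, in MM1S at 6 h (-0.94 ± 0.23). The median of the list was -0.24, -1.19, -0.41 and -0.24, and 0, 8, 2 and 0 fell and 0, 0, 1 and 0 rose after rescaling. Of all genes 4.19%, 12.5%, 7.22% and 13.3% fell on that scale, and 8.25% rose in MM1S at 6 h. Of 6 genes for the mitochondrial polymerase and its factors, 0, 4, 0 and 2 fell (limma, 0 and 2 at an unadjusted p under 0.05 at 6 h in H929 and MM1S), against 35.4% and 6.77% of all genes in H929 and MM1S at 24 h. Rescaled, 0, 1, 0 and 2 fell and 0, 0, 0 and 1 rose, where 12.5% (H929) and 13.3% (MM1S) of all genes fell at 24 h and 14.4% rose in MM1S. TFAM, POLRMT and TFB1M fell in H929 at 24 h (-1.38, -0.86 and -0.88; -0.60, -0.10 and -0.16 rescaled, where the last 2 did not pass, limma adjusted p = 0.616 and 0.649), and TEFM and MTERF1 in MM1S at 24 h (-1.23 and -0.63).

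Whether the response differed between the lines was tested as the YKL response of MM1S minus that of H929. At 6 h 0 of 31 members differed (limma, 0 at an unadjusted p under 0.05; 0.169% of all genes called, and 1.14% rescaled). At 24 h POLR3G (1.51 ± 0.35, adjusted p = 0.0341) and POLR3D (1.50 ± 0.35, adjusted p = 0.0341) differed upward (1.07% of all genes). Both had fallen in H929 (-2.17 and -1.58) and had smaller changes in MM1S (-0.65 and -0.08). For POLR3G the pseudocount compresses the MM1S change: the ratio of mean FPKM with YKL to that with DMSO was 0.178 in H929 and 0.302 in MM1S, a pseudocount of 0.1 gave log2 changes of -2.52 and -1.46, and with it 0 members differed between the lines. Rescaled, POLR3D kept the call (0.94, adjusted p = 0.00458) and POLR3G did not (0.61, adjusted p = 0.259), and POLR2H (0.57) and POLR3GL (-0.79) passed. POLR2J2 passed too, but its H929 values are too low to show a response. Of all genes 4.32% were called upward and 8.02% downward there. For POLR2A the difference at 24 h was 0.95 ± 0.41 (adjusted p = 0.201). The count at 24 h was unstable: it was 0 without the 3 doubted libraries, 0 without any 1 of H929 DMSO replicates 2 and 3, H929 YKL replicate 2, MM1S DMSO replicate 3 and MM1S YKL replicates 2 and 3, and 1 without replicate 1 of either DMSO group. It was 5 without H929 YKL replicate 3 and 16 without MM1S DMSO replicate 2.

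Times were compared as the response at 24 h minus that at 6 h. In H929 POLR2H (-1.78 ± 0.38, limma adjusted p = 0.00904), POLR3G (-1.71 ± 0.35, adjusted p = 0.00737), POLR1E (-1.62 ± 0.45, adjusted p = 0.0337) and POLR1D (-1.31 ± 0.40, adjusted p = 0.0482) responded more at 24 h, 4 of 31 members (6.18% of all genes were called downward). Their responses at 6 h were -0.48, -0.45, -0.59 and -0.43, and at 24 h -2.26, -2.17, -2.21 and -1.74. POLR1B and POLR1C, which fell at 6 h already, had interaction values of -0.17 ± 0.32 and -0.26 ± 0.43 (adjusted p = 0.765 and 0.732). Rescaled, POLR2H (-1.14) and POLR3G (-1.16) kept their calls and POLR3GL differed upward (0.72), where 4.65% of all genes were called downward and 5.77% upward. The count was 2 without the 3 doubted libraries, and 2 without any 1 of DMSO replicates 1 and 2 at either time, YKL 6 h replicates 2 and 3, and YKL 24 h replicate 2. It was 8 without YKL 6 h replicate 1 or YKL 24 h replicate 3. In MM1S 0 of 31 differed between times (limma, 2 at an unadjusted p under 0.05; 0.0805% of all genes called), and 3 did after rescaling, with POLR2B upward (0.70) and POLR2H (-0.69) and POLR2M (-0.81) downward (4.31% and 6.28% of all genes).

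Without the compound several subunits differed between the lines after rescaling. Both directions together, rescaled members were not called more often than all genes. With DMSO, 21 members were higher and 2 lower in H929 than in MM1S at 6 h (36.4% and 12.7% of all genes), and 28 higher and 1 lower at 24 h (67.9% and 5.36%), with all-gene medians of 0.36 and 1.08. Rescaled, 8 were higher and 3 lower at 6 h (22.6% and 31.1% of all genes), and 11 higher and 5 lower at 24 h (22.4% and 35.8%). POLR3G was higher in H929 on both scales, at 19.0 ± 2.15 FPKM against 1.84 ± 0.367 in MM1S at 6 h (mean ± SD, n = 3), with log2 differences of 2.82 ± 0.25 at 6 h and 2.95 ± 0.25 at 24 h (2.12 and 1.63 rescaled). POLR3D and POLR2L were also higher in H929 at 24 h (3.08 and 2.60).

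POLR2J2 was the reverse. It lay between 0.0983 and 0.197 FPKM in all 12 H929 libraries, close to the smallest value of each table (0.037 to 0.137), and at 5.66, 4.12 and 5.74 FPKM in MM1S with DMSO at 6 h. The log2 differences were -2.42 at 6 h and -1.65 at 24 h. They are a description, since the gene entered the test only through the line in which it is high, although it is among the members counted as lower. POLR2J4, at most 0.755 FPKM in H929, entered the same way. It is among those counted as lower after rescaling (-0.54 at 6 h and -0.85 at 24 h), which is a description too. POLR2J3 was lower in H929 as well at 6 h, at 5.01, 2.99 and 5.99 FPKM against 16.4, 16.4 and 12.1 (-1.52 ± 0.28), and after rescaling also at 24 h (-1.63). POLR2J itself was higher in H929 (1.03 at 6 h and 2.19 at 24 h; 0.35 and 0.42 rescaled). How reads were assigned among the near-identical copies was not tested.

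**Figure D5:**
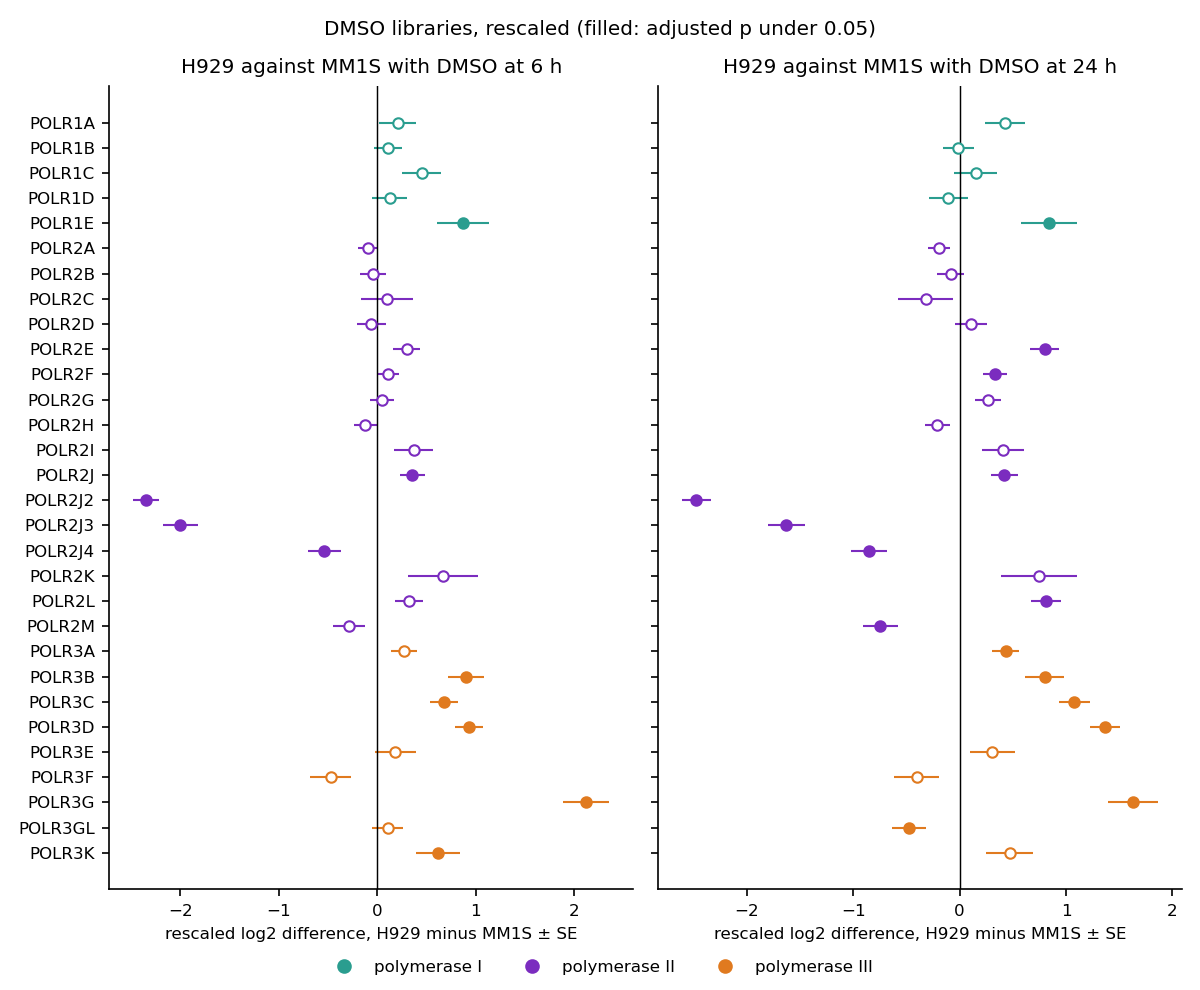
Rescaled log2 difference of the subunit genes reported, between H929 and MM1S with DMSO (H929 minus MM1S, ± SE, n = 3 per group) at 6 h and 24 h, filled where the adjusted p was under 0.05. POLR2J2 (-2.34 and -2.47) and POLR2J3 (-1.63 at 24 h) lie far to the left, and POLR3G (2.12 and 1.63) far to the right at both times. POLR2J2 and POLR2J4 entered the test through MM1S only.

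Time in culture with DMSO was compared in each line. In H929 0 of 31 members differed between 24 h and 6 h (limma, 0 at an unadjusted p under 0.05; 0.145% of all genes called), and after rescaling POLR2A was higher at 24 h (0.44, adjusted p = 0.0416; 0.644% of all genes). In MM1S 24 of 31 were lower at 24 h (56% of all genes), against an all-gene median of -0.74, and 15 were without DMSO 24 h replicate 3. POLR2L (-2.17 ± 0.29), POLR2I (-1.57 ± 0.33) and POLR3D (-1.49 ± 0.25) had the largest differences. Rescaled, POLR2A (0.54) and POLR3GL (0.67) were higher at 24 h and POLR2L (-0.98) and POLR3C (-0.45) lower (10.3% and 5.38% of all genes). These comparisons use the same DMSO libraries as the YKL comparisons, so the MM1S values at 24 h with YKL are read against DMSO libraries that were themselves lower.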

How the data were processed

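Gene expression was measured in 24 libraries of 3′-end RNA-seq (QuantSeq) from 2 cell lines, 2 treatments and 2 times. The deposited values are FPKM, which the authors made with HISAT2 and Cuffnorm on hg19, per the submitters' processing notes. Versions are not given in the sources used here. FPKM divides by gene length, which 3′ reads do not need. This cancels within a gene. In the ratios of 2 genes it stays in the value, so only their change between groups was read. Depth is unknown, since the tables hold no counts and no exact 0 among 26341 entries, of which 92 are spike-ins.

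From these values, log2(FPKM + 1) of 12418 genes (at least 1 FPKM in at least 3 libraries) was fitted with limma 3.58.1 in R 4.3.3, with 8 group means, a trend in variance and two-sided tests. Benjamini-Hochberg adjustment ran over all genes of a comparison, with a threshold of 0.05. The pseudocount understates the change of low genes. The same fit was run after median-of-ratios rescaling on 6014 genes. Values in every library are given by a rule: for the large catalytic pair of each enzyme and, per YKL comparison and polymerase, up to 2 called members with the smallest p. Other members are named where called, the 3 called with the largest difference in line and time comparisons, and up to 3 called partners per list by p. POLR3GL, POLR2J, POLR2J2 and POLR2J3 were given more room after their values were seen. Partners of the polymerases, the mitochondrial polymerase, and plasma cell, T cell, monocyte, epithelial and fibroblast, and line markers were listed. Of the members, 1 is counted but not reported here by name. The members and lists were chosen with earlier results of these data known. Alternatives were other scalings, pseudocounts and filters, fits on the compared groups only, a replicate block, and leaving out libraries.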

Additional observations from a re-analysis of the deposited data

Results flagged for a closer look

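At 24 h the YKL response (log2 change against DMSO) of POLR3G was 1.51 higher in MM1S than in H929 (limma interaction, adjusted p = 0.0341; 0.61 and adjusted p = 0.259 rescaled), and that of POLR3D 1.50 higher (adjusted p = 0.0341; 0.94 and adjusted p = 0.00458 rescaled). These tests of the difference between the lines passed on the deposited scale. POLR3G was low in MM1S, where the pseudocount compresses its change: YKL over DMSO mean FPKM was 0.178 in H929 and 0.302 in MM1S, and with a pseudocount of 0.1 the line difference had 0 calls.

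Within H929 the response at 24 h minus that at 6 h was -1.71 for POLR3G (limma interaction, adjusted p = 0.00737; -1.16 rescaled) and -1.78 for POLR2H (adjusted p = 0.00904; -1.14 rescaled). It was -1.62 for POLR1E (adjusted p = 0.0337; -1.08 rescaled, adjusted p = 0.0696) and -1.31 for POLR1D (adjusted p = 0.0482; -0.68 rescaled, adjusted p = 0.102). What lies behind these differences was not tested.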

How the results depend on the processing

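Counts below are members called of 31. Median-of-ratios rescaling gave 6 in H929 at 6 h, 12 in MM1S at 24 h, 4 for the line difference at 24 h, 3 for the time difference in MM1S, 11 and 16 between lines with DMSO at 6 h and 24 h, and 1 and 4 between times with DMSO in H929 and MM1S. POLR2B in H929 at 24 h reversed with it, and with the replicate block and rescaling together, to a log2 change of 0.0577. Fitting only the groups compared gave 0 in H929 at 6 h, 9 and 2 in MM1S at 6 h and 24 h, 0 for the line difference at 24 h, 2 for the time difference in H929 and 13 between times with DMSO in MM1S. Without a filter MM1S at 6 h had 1, the line difference at 24 h 1 and the time difference in H929 2; a pseudocount of 0.1 gave 0 and 1 for these differences.

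Correlations of deviations from the group means gave no sign of pairing by replicate number, but with 3 libraries per group they cannot exclude it. Same-numbered YKL and DMSO libraries ranged from -0.11 to 0.18 (1 of 12 over 0.1). Libraries of other numbers ranged from -0.29 to 0.25 (22 of 168 over 0.1). For 10 of 24 libraries the best correlate in another group had their own number. With the replicate number as a block the line difference at 24 h had 0 calls, and H929 at 6 h and 24 h 2 and 21, MM1S 2 and 4. Block and rescaling together gave 6 in H929 at 6 h, 12 in MM1S at 24 h, 4 for the line difference at 24 h, 2 and 3 for the time differences in H929 and MM1S, 12 and 16 between lines with DMSO and 4 between times with DMSO in MM1S.

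Without the 3 doubted libraries, chosen after seeing the data, the line difference at 24 h had 0 calls and the time difference in H929 2. With rescaling added there were 8 in H929 at 6 h, 9 in MM1S at 24 h, 1 and 2 for the line differences at 6 h and 24 h, 2 and 3 for the time differences in H929 and MM1S, 16 and 19 between lines and 2 and 4 between times with DMSO. Leaving out 1 library at a time gave 0 to 2 calls in H929 at 6 h, 19 to 23 at 24 h, 1 to 1 and 1 to 9 in MM1S, 0 to 0 and 0 to 16 for the line differences, 2 to 8 and 0 to 1 for the time differences, 17 to 24 and 27 to 29 between lines with DMSO, and 0 to 0 and 15 to 28 between times with DMSO in H929 and MM1S. Depth is unknown, so no counting error can be given.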
